A study of Mus musculus with 5 samples.

Results

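The genes that build microvilli and the actin cortex beneath the apical membrane were followed through attachment in the mouse uterine luminal epithelium. The list held 34 genes, chosen by name for their roles. They were membrane linkers, core bundlers, tip proteins, myosins, cortical crosslinkers, adhesion proteins, and severing or capping proteins. The choice was made with earlier results of these data known, so shares set against all genes describe the list and test nothing. All 34 were found among the 23420 genes of the count table, and 28 of them were among the 12918 genes whose CPM (a gene's counts when the library total is set to 1e+06) averaged at least 1. The samples were 5 RNA-seq libraries of the luminal layer, all from wild-type C57BL/6N mice in pregnancy, with the day of the vaginal plug as day 1. They came from day 3 morning, day 4 morning, day 4 evening and, after attachment, day 5 morning, where the layer was taken once away from the attached embryo and once around it, called the away and the around library below. The layer was cut out by laser microdissection. No genetic deletion or hormone treatment is named for any of the 5 groups, and the age of the mice and any pooling of animals for these 5 libraries are not given in the sources used here. The labels of the day 5 pair also name the M pole (away) and the AM pole (around), so the pole and the distance from the embryo cannot be told apart.

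Microvilli are finger-like projections of the apical membrane, each held up by a bundle of parallel actin filaments. Ezrin, radixin and moesin link the membrane to these filaments, plastins, espin and villin bundle them, and class I myosins tie the bundle to the membrane around it. The bundles are rooted in the terminal web, a mesh of cortical actin, myosin II and alpha-actinin. In rodents, the luminal epithelium is known to lose its tall microvilli and to flatten its apical surface around the time when the blastocyst attaches.

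Each group had 1 library, so no difference below has a replicate check and no p-value is given. The 5 libraries held between 15334674 and 19529491 counts. Differences are log2 differences of CPM, scaled by TMM (trimmed mean of M values) with a prior count of 2 added. A gene was called higher or lower where the difference passed 2-fold, which is 1 on the log2 scale. The range in brackets is a 95% exact (Clopper-Pearson) interval for the ratio of both counts and covers counting error only. Levels are compared between genes as RPKM (CPM per kilobase of the gene model). The comparisons share libraries and are not independent of each other.

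The day 5 library around the embryo stood apart in other markers. The summed level of 8 epithelial markers was 5175 CPM in the away library and 8360 CPM in the around library, and 7 of the 8 were higher in the latter, with a median difference of 1.02. None of the 8 was at 0 counts in any library. The sum of 6 smooth muscle markers was between 10.9 and 31.8 CPM in the other libraries and 395 CPM around the embryo. Des gave 354 CPM of the latter, with 6090 counts. The sum of 9 stromal markers was between 542 and 621 CPM in the other libraries and 397 CPM around the embryo, with 3 of the 9 higher around than away. The sum of 6 leukocyte markers was between 246 and 353 CPM against 90.4 CPM. The sum of 5 endothelial markers was between 12.0 and 44.7 CPM against 95.5 CPM, of which Cdh5 gave 71.4 CPM, and only 2 of the 5 were higher around than away, with a median difference of -0.82. The sum of 6 gland markers was between 1.83 and 6.01 CPM against 31.2 CPM, of which Lif, which the stroma around an attached embryo also makes, gave 17.7 CPM. All 6 gland markers were higher around than away, with a median difference of 2.59 over the 5 that passed the filter. Foxa2, which defines the glands, had 32 and 51 counts on day 3 and day 4 morning and 0 on day 4 evening. On day 5 it had 2 counts away from and 21 counts around the embryo. Of 10 embryo and trophoblast markers, Pou5f1 had 68 counts and Cdx2 had 22 counts around the embryo, and both had 0 counts in the other libraries. Apart from Sox17, which had at least 14211 counts in each library, the embryo markers summed to between 5.18 and 13.4 CPM in the other libraries and 107 CPM around the embryo. The part of these markers in the differences of the library around the embryo was not tested. In bulk samples, fewer cells of a type and less RNA per cell cannot be told apart.

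Promoter sequences were read for the members from RefSeq on GRCm38.p6, which held 43 promoters of 30 members. The 250 bases before each start were searched on both strands for a Stat motif (TTCNNNGAA), for AGAACA, to which the progesterone receptor binds, and for the CArG box of serum response factor, a regulator of many actin genes. The Stat motif was in 1 of the 43 promoters (2.33%) and in 7.02% of all 32851 promoters. AGAACA was in 4 of 43 (9.30%) and in 16.1% of all. The CArG box was in 2 of 43 (4.65%), those of Myo1e and Vil1, and in 1.47% of all. The members below were picked after their values were seen. They are shown because their counts moved far and in opposite directions, and because their promoters held a match, which is printed in capitals. For Rdx the second of its listed starts is shown (chr9:52047691-52047940, plus strand), where the capitals are AGAACA on the opposite strand, 173 bases before the start. The other Rdx promoter held no match. For Myo1e (chr9:70207100-70207349, plus strand) the capitals are the CArG box, 32 bases before the start. A match is a description of the letters and not a site of binding.
Rdx: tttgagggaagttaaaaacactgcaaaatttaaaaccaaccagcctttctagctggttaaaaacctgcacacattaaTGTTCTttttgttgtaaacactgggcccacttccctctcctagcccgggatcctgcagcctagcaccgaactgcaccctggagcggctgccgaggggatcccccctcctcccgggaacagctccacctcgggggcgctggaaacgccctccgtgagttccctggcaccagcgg
Myo1e: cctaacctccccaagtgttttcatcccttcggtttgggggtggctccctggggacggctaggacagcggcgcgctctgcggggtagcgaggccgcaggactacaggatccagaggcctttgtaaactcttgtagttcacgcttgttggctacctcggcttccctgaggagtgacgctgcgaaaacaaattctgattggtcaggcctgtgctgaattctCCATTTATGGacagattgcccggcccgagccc

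Of the 34 genes, 6 stayed under the filter. They included the best known brush border genes of the intestine. Vil1, the villin of intestinal microvilli, had 31, 16, 8, 8 and 1 counts in the order day 3 morning, day 4 morning, day 4 evening, day 5 away and day 5 around, an order kept below. Espn, the bundler espin, had 12, 6, 0, 5 and 8 counts. Myo1a, the main class I myosin of the intestinal brush border, had 0, 2, 9, 2 and 2 counts. Their levels were low, and that of Vil1 was 1.78 CPM on day 3 and under 1 CPM in the other libraries, where the floor of 3 counts used here equals 0.154 to 0.196 CPM. Around the embryo against day 4 morning, the interval of the log2 difference of Vil1 was from -9.33 to -1.25. Around against away it was from -8.36 to 0.01, and away against day 4 morning from -2.49 to 0.25. From day 3 to day 4 morning it was from -1.97 to -0.09. The 1 count of Vil1 around the embryo lies under that floor. For day 4 evening against morning, the interval of Myo1a was from 0.08 to 5.60, and that of Espn ended at -0.05. Among the protocadherins that join microvillus tips in the intestine, Cdhr2 had at most 1 count in a library. The other, Cdhr5, had 11, 5, 17, 2 and 17 counts. Its interval was from 1.13 to 6.36 for around against away, where the 2 counts away lie under the floor. For day 4 evening against morning it was from 0.45 to 3.74, and for around against day 4 morning from 0.33 to 3.62. Ush1c, the scaffold of that adhesion complex, had 0 counts in every library. These 6 are not among the genes called higher or lower below.

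The 28 kept genes spanned a wide range of levels. Cfl1 was highest by mean RPKM, followed by Pls3, Pdlim1, Ezr and Rdx. The lowest count of a kept gene in any library was 22, for Pdzk1. Of the 28, 15 (53.6%) had their highest CPM in the day 5 library around the embryo, where 28.8% of all kept genes had theirs. Day 4 morning held the highest CPM of 6 (21.4%, against 19.7% of all kept genes), day 4 evening of 3 (10.7%, against 14.7%), day 5 away of 3 (10.7%, against 17.2%) and day 3 morning of 1 (3.57%, against 19.6%). The share on day 4 morning was near that of all genes.

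**Figure D1:**
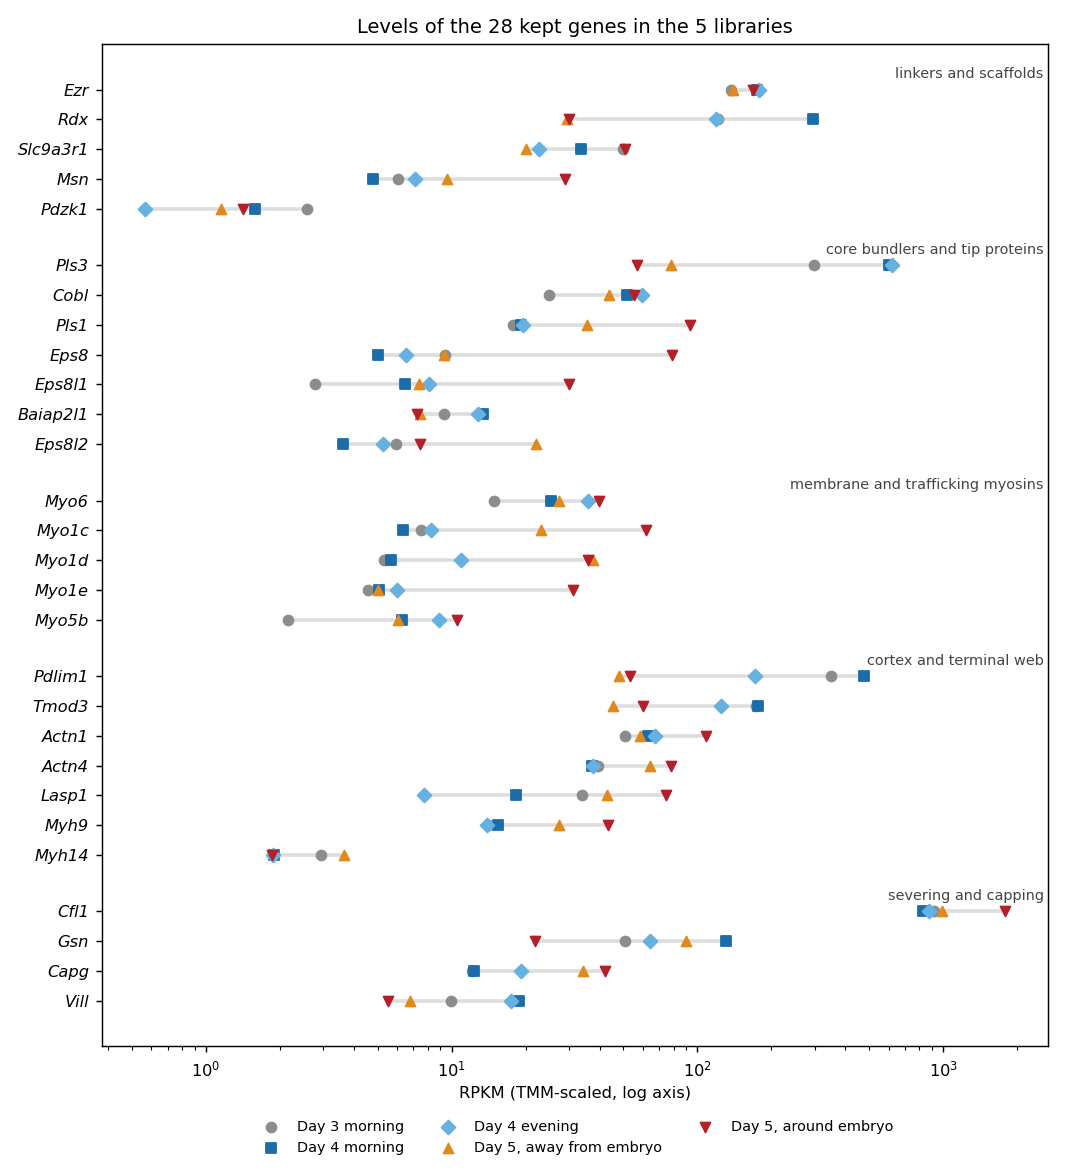
TMM-scaled RPKM (log axis) of the 28 kept genes, grouped by role, with 1 point per library and a grey line from the lowest to the highest. Rdx, Pls3, Pdlim1 and Tmod3 have both day 5 points at the left end, while Eps8, Myo1c and Msn have the day 5 point around the embryo at the right end.

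Ezrin, radixin and moesin were the first group examined, since they carry the link from membrane to actin. Rdx (chr9:52047150-52088738) had 10219, 25669, 9132, 2654 and 2502 counts. It was highest on day 4 morning and lowest in both day 5 libraries. The difference was 1.28 [1.25, 1.31] from day 3 to day 4 morning and -1.31 [-1.34, -1.27] from day 4 morning to evening, so the level on day 4 evening was close to that on day 3. Against day 4 morning it was -3.33 [-3.39, -3.27] in the away library and -3.30 [-3.36, -3.24] in the around library. The day 5 libraries differed from each other by only 0.03 [-0.05, 0.11].

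Ezr (chr17:6738131-6782780), encoding ezrin, had 7313, 9619, 8677, 7966 and 8888 counts. None of its 5 differences passed 2-fold, and they lay between -0.33 and 0.35. Msn (chrX:96096045-96168553), encoding moesin, had 404, 330, 433, 686 and 1910 counts. It was highest around the embryo, by 2.59 [2.42, 2.77] against day 4 morning and by 1.59 [1.47, 1.72] against the library away from the embryo. Away from the embryo its difference of 1.00 [0.81, 1.19] lay just under the threshold. Moesin is also made by stromal, endothelial and blood cells.

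The makeup of the family therefore differed between libraries although Ezr was nearly level. Radixin took 62.2% of the summed RPKM of the 3 genes on day 4 morning, 39.1% on day 4 evening, 16.5% in the away library and 13.2% in the around library. Ezrin took 36.8%, 58.6%, 78.1% and 74.1% of it in the same libraries. Moesin took 1.01% on day 4 morning and 12.7% around the embryo. The ratio of Rdx to Ezr in RPKM was 1.69 [1.65, 1.73] on day 4 morning, 0.667 [0.648, 0.687] on day 4 evening and 0.178 [0.171, 0.187] around the embryo. The sum of the family was 474 RPKM on day 4 morning, 305 on day 4 evening, 178 in the away library and 227 in the around library.

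The PDZ scaffolds were each called in 1 comparison. Slc9a3r1 (chr11:115163341-115181178), encoding the PDZ scaffold NHERF1 that ties membrane proteins to ezrin, had 1664, 1162, 689, 718 and 1679 counts. It was high on day 3 and around the embryo and low on day 4 evening and away from the embryo. The only difference past 2-fold was 1.34 [1.21, 1.47] between the day 5 libraries. Pdzk1 (chr3:96830065-96870926), a related PDZ scaffold, had 110, 70, 22, 53 and 60 counts, and its -1.41 [-2.25, -0.78] on day 4 evening passed the threshold with a wide interval. Its model shares 1333 exon bases with Gpr89 on the opposite strand, and the strand setting of the counting is not given in the sources used here.

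**Figure D2:**
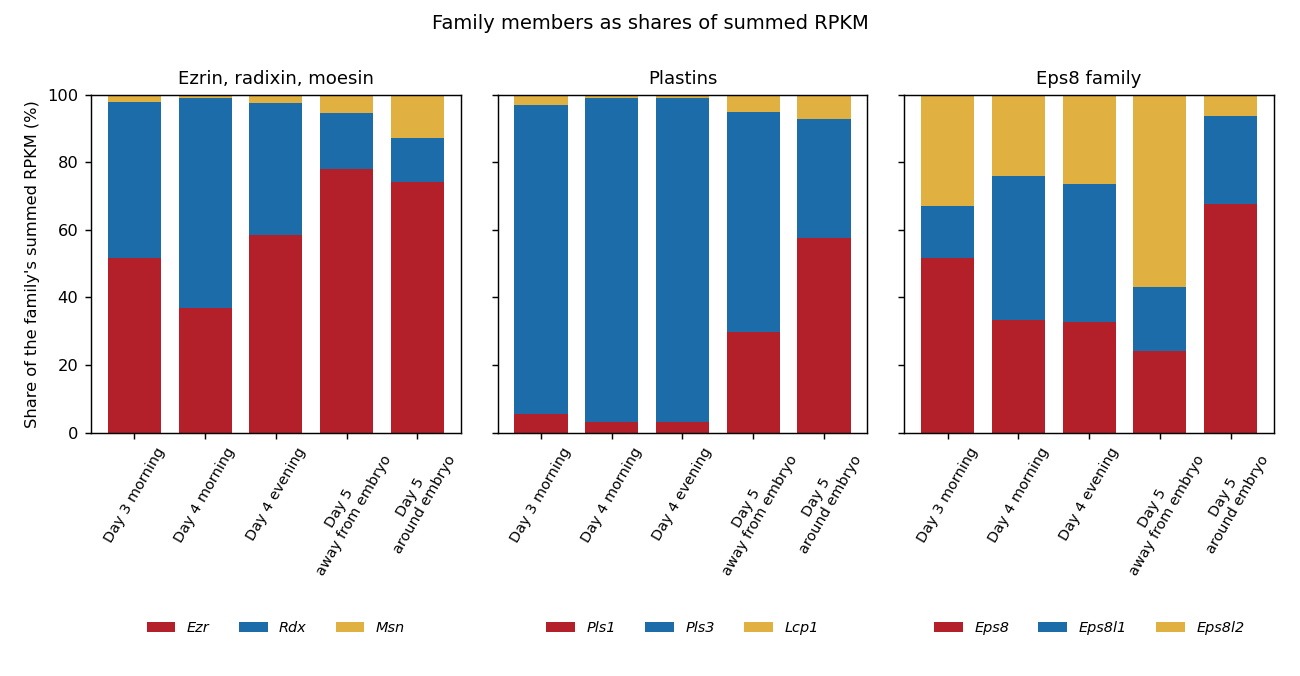
Stacked bars give each gene's share (%) of the summed RPKM of its family in each library, for ezrin, radixin and moesin, for the plastins and for the Eps8 family. Radixin holds 62.2% on day 4 morning and 13.2% around the embryo, plastin 3 holds 95.9% and 35.2%, and Eps8 holds 33.3% and 67.7%.

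Plastins bundle the filaments of the core. Pls3 (chrX:75785654-75875170), encoding plastin 3, had 18151, 37607, 34287, 5106 and 3427 counts. It was high in all 3 libraries from before attachment and low in both day 5 libraries. From day 3 to day 4 morning the difference was 1.00 [0.98, 1.03], just past the threshold, and from day 4 morning to evening it was 0.05 [0.03, 0.07]. Against day 4 morning it was -2.93 [-2.98, -2.89] in the away library and -3.39 [-3.45, -3.35] in the around library. Unlike Rdx, it was thus level through day 4, and its difference between day 4 evening and day 5 was -2.98 away from and -3.44 around the embryo.

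Pls1 (chr9:95752642-95845279), encoding plastin 1, the form found in intestinal microvilli, went the other way. It had 1145, 1275, 1143, 2455 and 5931 counts, level in the 3 earlier libraries and highest around the embryo. The difference from day 4 morning was 0.89 [0.79, 0.99] in the away library and 2.28 [2.19, 2.37] in the around library, and that between the day 5 libraries was 1.39 [1.32, 1.46]. Pls3 stood 31.2-fold [29.5, 33.0] above Pls1 in RPKM on day 4 morning and 2.20-fold [2.10, 2.31] above it in the away library. Around the embryo the order was the opposite, with Pls1 1.63-fold [1.57, 1.71] above Pls3. The summed RPKM of Pls1, Pls3 and Lcp1, the plastin of leukocytes, was 625 on day 4 morning, 647 on day 4 evening, 120.0 in the away library and 162 in the around library. Plastin 1 held 3.07%, 3.02%, 29.7% and 57.6% of these sums, and Lcp1 held at most 7.21%.

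Eps8 proteins cap and bundle filaments at the microvillus tip. Eps8 (chr6:137477245-137649285) had 804, 446, 509, 860 and 6708 counts, a level around the embryo far above that in the other 4 libraries. Its 3.96 [3.83, 4.11] against day 4 morning, or 15.6-fold, was the largest difference of any kept member in the 5 comparisons. Against the library away from the embryo it was 3.08 [2.98, 3.18]. Eps8l1 (chr7:4464742-4479242), its relative, had 122, 292, 322, 348 and 1311 counts. It was higher on day 4 than on day 3 morning by 1.20 [0.90, 1.53] and higher around than away from the embryo by 2.02 [1.86, 2.20].

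Eps8l2 (chr7:141339002-141363016) had the reverse pattern on day 5, with 317, 199, 254, 1264 and 391 counts. Its model shares 1729 exon bases with B230206H07Rik on the opposite strand, which had 0 counts in every library. As for Pdzk1, the strand setting of the counting is not given. Eps8l2 was highest away from the embryo, by 2.60 [2.40, 2.84] against day 4 morning, and its difference around against away was -1.57 [-1.75, -1.41]. The leading gene of the family therefore differed between the day 5 libraries, with Eps8l2 at 56.9% of the summed RPKM away from the embryo and Eps8 at 67.7% around it. That sum was 15.1 RPKM on day 4 morning, 38.8 in the away library and 116 in the around library. Cobl (chr11:12236676-12464960), an actin nucleator that supports microvillus assembly, had 2437, 5241, 5281, 4560 and 5336 counts. It was low on day 3 alone, with a difference of 1.06 [0.99, 1.13] to day 4 morning. Baiap2l1, a membrane-bending partner of Eps8, had between 404 and 785 counts and passed the threshold nowhere.

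Class I myosins link the actin core to the membrane, and each of the 3 kept members was called higher in at least 1 day 5 library. Myo1c (chr11:75651509-75674634) had 734, 646, 737, 2429 and 6013 counts, higher in both day 5 libraries and highest around the embryo. Its difference from day 4 morning was 1.85 [1.73, 1.98] away and 3.27 [3.16, 3.40] around. Myo1d (chr11:80482127-80780025) had 495, 543, 928, 3774 and 3320 counts, nearly equal in the day 5 libraries. It was 2.74 [2.61, 2.87] above day 4 morning in the away library and 2.67 [2.54, 2.81] in the around library, and already 0.95 [0.80, 1.11] above it on day 4 evening.

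Myo1e, whose promoter with the CArG box is printed above, has its gene at chr9:70207350-70400067. It had 391, 451, 468, 464 and 2662 counts, level in the other 4 libraries and high around the embryo alone. The difference from day 4 morning was -0.01 [-0.20, 0.18] in the away library and 2.62 [2.48, 2.77] in the around library, and 2.63 [2.49, 2.78] between the day 5 libraries. Summed over the 3 class I myosins, the level was 17.1 RPKM on day 4 morning, 25.2 on day 4 evening, 65.9 in the away library and 129 in the around library.

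The trafficking myosins stood apart from them. Myo5b (chr18:74442619-74771477), the motor of apical recycling vesicles, had 249, 748, 938, 750 and 1202 counts. It was called only from day 3 to day 4 morning, by 1.53 [1.33, 1.75], the largest difference of a kept member in that comparison. Myo6, which moves toward the microvillus base, had between 2043 and 5382 counts and differences between 0.11 and 0.76, all of them above 0 and none past 2-fold.

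The cortex and terminal web held genes that were lower on day 5 beside genes that were higher. Pdlim1 (chr19:40222239-40271616), which binds alpha-actinin through its PDZ domain, had 9124, 12860, 4096, 1347 and 1383 counts. It was high on both mornings before attachment and already lower on day 4 evening, by -1.47 [-1.52, -1.42], with a further -1.84 and -1.69 from there to the day 5 libraries away from and around the embryo. Tmod3 (chr9:75497784-75559657), which caps the slow-growing filament end, had 10763, 11340, 7095, 3036 and 3723 counts. Its difference on day 4 evening was -0.49 [-0.54, -0.45], short of the threshold, and it was called lower in both day 5 libraries, with -1.96 [-2.01, -1.90] away and -1.55 [-1.60, -1.49] around.

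Lasp1 (chr11:97799672-97838764), an actin-binding LIM and SH3 protein of the cortex, changed direction within the series. It had 2021, 1127, 421, 2742 and 4388 counts, lowest on day 4 evening and highest around the embryo. The difference was -1.23 [-1.40, -1.07] from day 4 morning to evening. From day 4 evening it was 2.46 [2.32, 2.62] in the away library and 3.25 [3.11, 3.41] in the around library, larger than from day 4 morning, where it was 1.23 [1.13, 1.33] and 2.02 [1.93, 2.12]. Pdlim1 stood 26.0-fold [24.5, 27.7] above Lasp1 in RPKM on day 4 morning, and around the embryo the ratio was 0.719 [0.676, 0.764].

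Myosin II and alpha-actinin contract and crosslink this mesh. Myh9 (chr15:77760589-77842115), the heavy chain of non-muscle myosin IIA, had 1795, 2037, 1620, 3750 and 5501 counts, and was called only around the embryo, by 1.49 [1.42, 1.57]. Actn4 (chr7:28893254-28962280), an alpha-actinin, had 2614, 2549, 2267, 4553 and 5145 counts and was at 0.78 [0.71, 0.85] away and 1.07 [1.00, 1.14] around the embryo. Both were higher in each day 5 library than in any of the 3 earlier ones. Actn1, the other alpha-actinin, had between 3305 and 7005 counts, most around the embryo, and Myh14, the heavy chain of myosin IIC, had between 195 and 448 counts, most away from it. Neither passed the threshold in any comparison. Myh9, Actn1 and Actn4 are also abundant in stromal and muscle cells.

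Proteins that cut or cap filaments were split. Gsn (chr2:35256359-35307902), encoding the severing protein gelsolin, had 2591, 6918, 2979, 4922 and 1104 counts. It was highest on day 4 morning and lowest around the embryo. It was higher from day 3 to day 4 morning by 1.37 [1.30, 1.43] and lower on day 4 evening at -1.03 [-1.10, -0.97]. On day 5 it was at -0.55 [-0.60, -0.49] away from the embryo and at -2.59 [-2.68, -2.50] around it, with -2.04 [-2.14, -1.95] between these libraries. Gelsolin is also made by stromal cells. The stromal markers did not move together between these libraries, where 3 of 9 were higher around the embryo and the median difference was -0.85. Dcn had 1709 counts away from and 242 counts around the embryo, Lum 997 and 115, and Col3a1 2640 and 729. Also lower there were Col1a2 with 843 and 263, Hoxa10 with 1457 and 747, and Vim with 1300 and 1012. On the other side, Hand2 had 389 and 2282, Col1a1 458 and 796, and Pdgfra 647 and 649. The part of stromal RNA in this difference was not tested.

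Vill (chr9:119052778-119071525), a villin-like protein, had 504, 987, 806, 367 and 277 counts, low in both day 5 libraries at -1.48 [-1.66, -1.31] and -1.77 [-1.97, -1.58]. Capg (chr6:72544391-72562983), which caps filament ends without cutting, had 405, 425, 583, 1225 and 1386 counts and was higher in both, by 1.47 [1.31, 1.64] and 1.76 [1.61, 1.93]. Cfl1 (chr19:5490455-5494031), encoding cofilin, the main severing protein of most cells, had 18887, 17548, 16399, 21888 and 36538 counts. It was called only around the embryo, by 1.12 [1.09, 1.14].

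**Figure D3:**
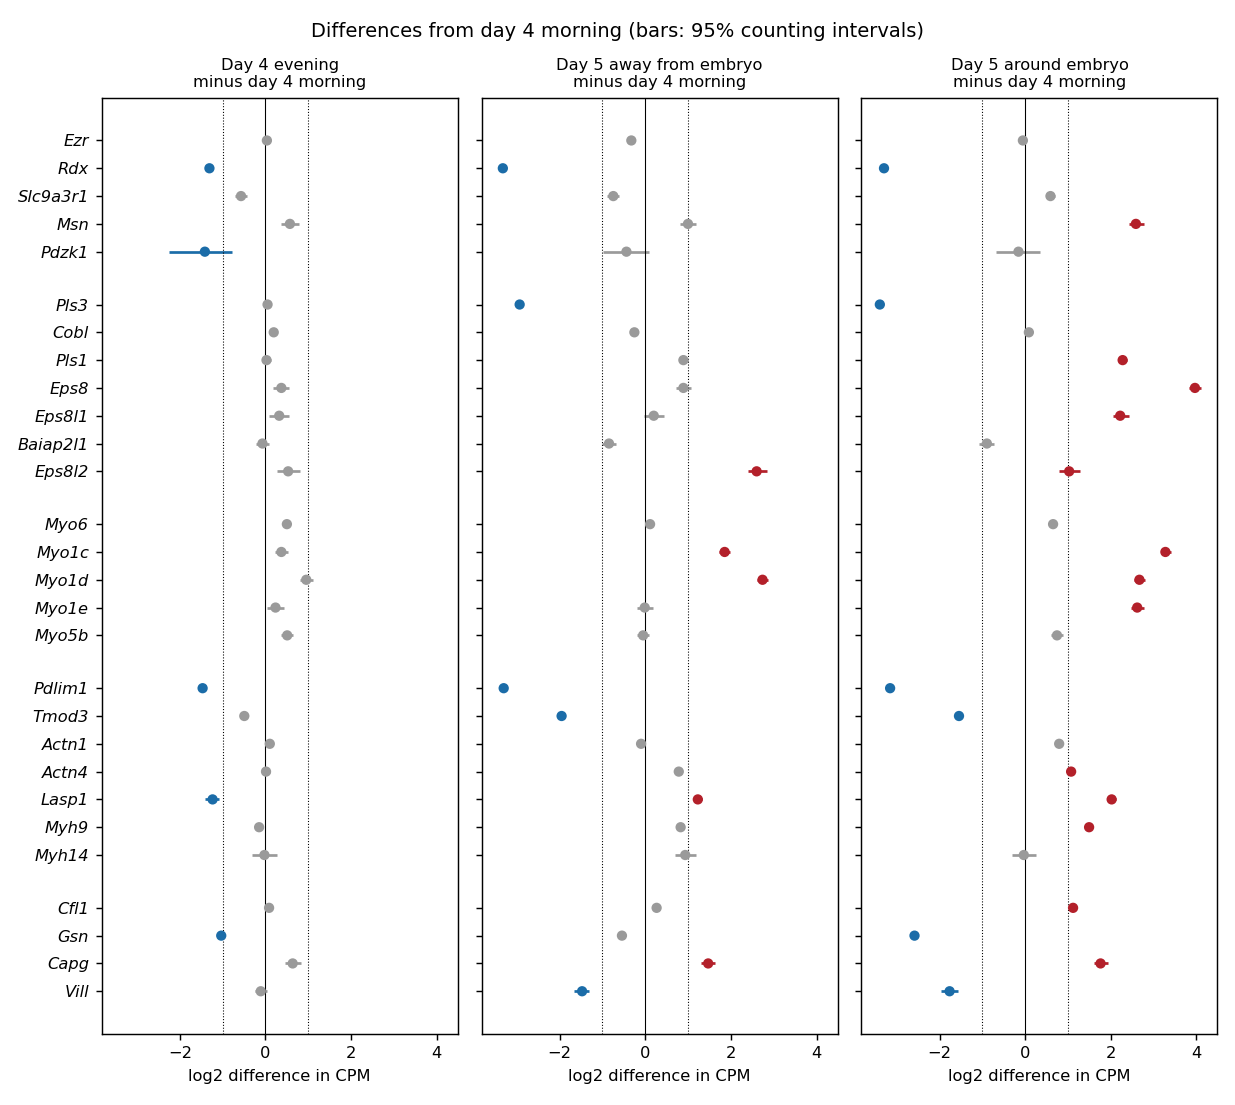
Log2 differences in CPM from day 4 morning for the 28 kept genes, with bars for the 95% counting interval, dotted lines at 2-fold, and red and blue points for genes past it. On day 4 evening 5 points are blue and none is red, and around the embryo 13 are red and 6 are blue.

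Counted over the list, the comparisons differed in direction. From day 3 to day 4 morning, 6 of the 28 kept genes were called higher (21.4%, against 7.41% of all kept genes) and 0 lower (against 11.5%), with a median of 0.12 against 0.00 over all genes. They were Myo5b, Gsn, Rdx, Eps8l1, Cobl and Pls3, and 3 of these 6 were among the 7 core bundlers and tip proteins. This count depended on the scaling. With library totals in place of TMM, the median of all genes shifted to -0.29. Of the 28, 2 were then called higher (Myo5b and Gsn, against 4.16% of all kept genes) and 3 lower (against 17.1%).

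From day 4 morning to evening, 0 were called higher (against 7.20% of all kept genes) and 5 lower (17.9%, against 6.94%), with a median of 0.04 against 0 over all genes. The 5 were Pdlim1, Pdzk1, Rdx, Lasp1 and Gsn. The 5 kept myosins for membrane and trafficking were all on the higher side, between 0.24 and 0.95. Rdx and Gsn were thus called higher on day 4 morning than on the day before and than on that evening. With library totals, the former call of Rdx and the latter of Gsn were lost.

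Away from the embryo on day 5, 5 were called higher than on day 4 morning (17.9%, against 15.0% of all kept genes) and 5 lower (17.9%, against 14.3%), so the shares were near those of all genes. The median was 0.05 against 0.00. Around the embryo, 13 were called higher (46.4%, against 20.7%) and 6 lower (21.4%, against 22.6%), with a median of 0.77 against -0.03 over all genes. The calls of Eps8l2, Actn4 and Cfl1 in the around library, were lost with library totals without Rn45s and Lars2. The share called higher was above that of all genes, and the share called lower was near it. With library totals, 11 of 28 rather than 5 were called higher away from the embryo, against 20.8% of all kept genes. The median of all genes shifted to 0.28 there. With totals without Rn45s and Lars2, 9 of 28 were called higher away from the embryo, against 17.7%. The share called higher away from the embryo was thus near that of all genes with TMM, but above it with these 2 scalings.

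Called higher away from the embryo were Myo1d, Eps8l2, Myo1c, Capg and Lasp1, and called lower were Rdx, Pdlim1, Pls3, Tmod3 and Vill. Called higher around the embryo were Eps8, Myo1c, Myo1d, Myo1e, Msn, Pls1, Eps8l1, Lasp1, Capg, Myh9, Cfl1, Actn4 and Eps8l2, and called lower were Pls3, Rdx, Pdlim1, Gsn, Vill and Tmod3. Both comparisons rest on the same day 4 morning library, so genes shared by these calls are not separate evidence. Rdx, Pls3, Pdlim1, Tmod3, Myo1d and Capg are among genes that the study clustered partly on these libraries.

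The day 5 libraries were also set against each other. Around the embryo, 7 of 28 were called higher than away from it (25.0%, against 13.3% of all kept genes) and 2 lower (7.14%, against 15.0%), with a median of 0.38 against -0.05 over all genes. The 7 were Eps8, Myo1e, Eps8l1, Msn, Myo1c, Pls1 and Slc9a3r1, and the 2 were Gsn and Eps8l2. None of the 7 genes of the cortex and terminal web was called in this comparison, against 13.3% of all kept genes higher and 15.0% lower. With so few genes this count says little, and 6 of the 7 were above 0, with a median of 0.41. As given above, 7 of 8 epithelial markers were also higher around the embryo, with a median of 1.02. All 6 gland markers were higher there too, with a median of 2.59, and so were all 6 smooth muscle and all 10 embryo markers. With library totals, the median of the members was 0.06 and that of all genes was -0.36.

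**Figure D4:**
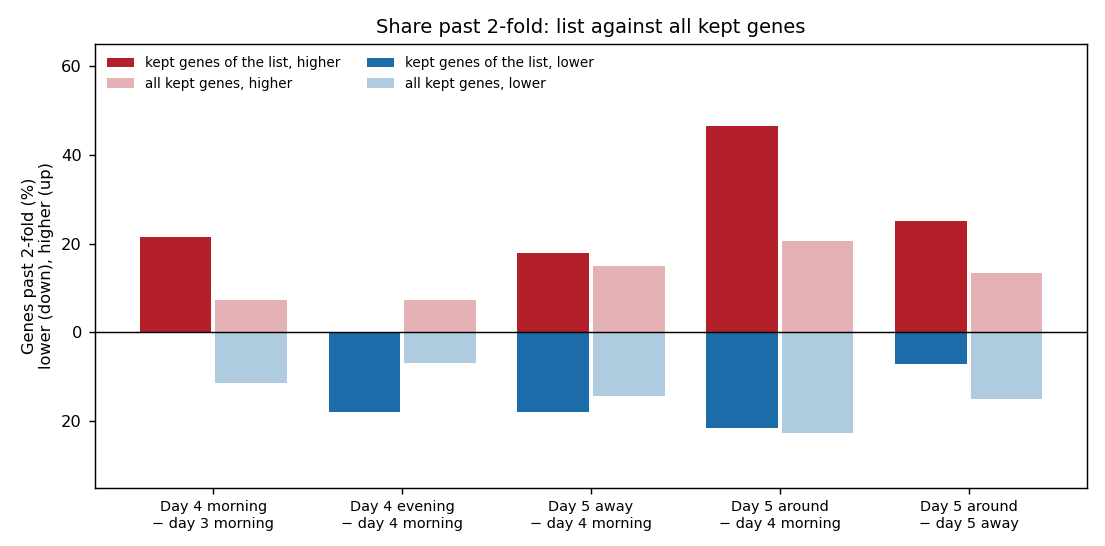
Share (%) of the 28 kept genes past 2-fold in each comparison (dark bars) beside that of all 12918 kept genes (light bars), with higher drawn upward and lower downward. The dark bar is tallest around the embryo against day 4 morning, at 46.4% beside 20.7%.

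The threshold ran close to some genes. From day 3 to day 4 morning, Pls3 at 1.00 was just inside and Vill at 0.92 just outside it. On day 4 evening, Gsn at -1.03 was just inside and Myo1d at 0.95 just outside. For day 5 away from the embryo, Lasp1 at 1.23 was inside and Msn at 1.00 outside, and for day 5 around it, Eps8l2 at 1.03 was inside and Baiap2l1 at -0.89 outside. Between the day 5 libraries, Slc9a3r1 at 1.34 was inside and Myh14 at -0.96 outside.

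The other genes of the pathway were described from 4 lists of 83 genes, of which 73 passed the filter. These lists too were chosen with earlier results of these data known. They covered further brush border genes, partners and kinases of ezrin, other regulators of actin filaments, and genes of myosin II, tropomyosin and spectrin. From day 3 to day 4 morning 6 were called higher (8.22%, against 7.41% of all kept genes) and 6 lower (8.22%, against 11.5%). On day 4 evening 1 was called higher (1.37%, against 7.20%) and 6 lower (8.22%, against 6.94%). Away from the embryo 11 were called higher (15.1%, against 15.0%) and 13 lower (17.8%, against 14.3%), shares near those of all genes, with a median of -0.10. Around the embryo 25 were called higher (34.2%, against 20.7%) and 10 lower (13.7%, against 22.6%), with a median of 0.50. Between the day 5 libraries 18 were called higher around the embryo (24.7%, against 13.3%) and 8 lower (11.0%, against 15.0%), with a median of 0.51.

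Among the partners of ezrin, Podxl, a sialomucin of the apical surface, had 620, 1182, 263, 206 and 601 counts. Like Rdx it was lower on day 4 evening than on day 4 morning, at -1.98, but unlike Rdx it was higher around than away from the embryo, by 1.65. Nf2, encoding merlin, a relative of the ezrin family, had 1325, 2998, 1898, 743 and 598 counts, with -2.06 away and -2.26 around. Muc1, an apical mucin, had 2427, 1506, 1730, 915 and 4167 counts and was 2.30 higher around than away from the embryo. Stk24, a kinase related to those that act on ezrin, had 274, 442, 374, 779 and 1310 counts and was at 1.62 around the embryo.

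Of the other brush border genes, Fscn1, the bundler fascin, had 235, 110, 217, 410 and 567 counts and was called higher in both day 5 libraries, by 1.82 and 2.40. Myo10, a motor of filopodia, had 1016, 1210, 1587, 2661 and 4901 counts, with differences of 1.08 and 2.08. Slc9a3r2, the relative of Slc9a3r1, had 1245, 2609, 2556, 1208 and 793 counts and was called lower in both, at -1.16 and -1.66. The scaffold pair therefore differed around the embryo, where Slc9a3r1 was at 0.59 [0.48, 0.70] against day 4 morning.

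Among filament regulators, Tmsb4x, which binds actin monomers, had 120470, 127512, 106467, 21402 and 25839 counts, with -2.63 away and -2.24 around. Its pattern of high counts in the 3 earlier libraries and low counts on day 5 was also that of Pls3. Tmod2, the relative of Tmod3, had 1218, 3532, 2329, 1325 and 377 counts, with -1.47 away and -3.16 around. Enah and Vasp, which speed filament growth, were higher on day 5. Enah had 206, 118, 149, 799 and 487 counts, with 2.68 away and 2.09 around. Vasp had 1145, 1291, 1357, 2419 and 4565 counts, with 0.85 away and 1.88 around.

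In the list of myosin II, tropomyosin and spectrin, relatives of Pdlim1 went both ways. Pdlim7 had 334, 95, 140, 273 and 1273 counts, with 1.45 away and 3.78 around. Pdlim2 had 502, 1019, 758, 77 and 127 counts, with -3.74 away and -2.92 around. Mylk, the kinase of the myosin light chain, which smooth muscle also makes in quantity, had 90, 100, 118, 91 and 908 counts, so it was high around the embryo alone. Smooth muscle markers summed to 395 CPM in the same library, of which Des gave 354 CPM, and their part in this value was not tested. Add3, an adducin that joins spectrin to actin, had 2733, 4986, 2749, 1550 and 600 counts, with -1.74 away and -2.99 around.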

How the data were processed

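Luminal layers of wild-type mouse uteri were laser-microdissected and amplified by SMART-seq v.4. Per the labels and the paper, reads were aligned to GRCm38/mm10 with HISAT2 and counted with featureCounts of Subread 2.0.0. RNA of 3 samples was pooled for each Lif group of the study, and whether these wild-type libraries were pooled is not given in the sources used here, nor are the annotation, the strand setting and the handling of reads with several alignments. The authors deposited raw counts per gene and a gene length in bases, without normalization. From these, TMM factors over the 5 libraries (0.900 to 1.13) were computed with edgeR 4.0.16 in R 4.3.3, and the other values with Python 3.11.15, pandas 2.3.3, numpy 2.4.6 and scipy 1.17.1. Plots used matplotlib 3.10.9.

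The filter kept genes whose CPM averaged at least 1, and log2 CPM carries a prior count of 2. With 1 library per group no test was run. The TMM scaling was tested on simulated counts. Counts of 3 or fewer were treated as the floor. Libraries held 15334674 to 19529491 counts on 15274 to 15888 genes, and the features Rn45s and Lars2 took 15.0% to 23.2% of them. Values in every library were given for members past 2-fold in any comparison and for the 5 highest by mean RPKM. From each pathway list, up to 4 genes with the largest day 5 difference and a mean of at least 10 CPM were named. All 9 stromal markers were named. A few further genes (Des, Cdh5, Foxa2, Lif, Lcp1, Cdx2, Pou5f1 and Sox17) and the printed promoters were chosen after the values were seen. The members and lists were chosen with earlier results of these data known. Alternatives were a prior count of 0.5, no filter, a filter at an average of 5 CPM, library totals, size factors of DESeq2 1.42.0, and day 4 evening as reference. Library totals without Rn45s and Lars2 were added after seeing the data.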

Additional observations from a re-analysis of the deposited data

How the results depend on the processing

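None of the 49 called differences of members changed sign under the 7 alternatives. This says little about the scalings. Even with library totals the median of all genes lay between -0.36 and 0.28, too small a shift to turn a call past 1. DESeq2 size factors and a prior count of 0.5 kept all 49 calls. The filter does not enter the differences, so its alternatives could only add or remove genes and did not check the calls. No filter left all 49 in place, and a mean CPM of at least 5, which removed Pdzk1, left the other 48. With day 4 evening as reference, 27 of 29 were kept, without Capg away from and Eps8l2 around the embryo. Library totals lost 6 calls, those of Rdx, Pls3, Eps8l1 and Cobl from day 3 to day 4 morning, Gsn on day 4 evening and Eps8l2 around the embryo. Library totals without Rn45s and Lars2, chosen after seeing the data, lost 5, those of Pls3 and Cobl on day 4 morning and of Eps8l2, Actn4 and Cfl1 around the embryo. With library totals, 2 of 28 members were higher (against 4.16% of all kept genes) and 3 lower (against 17.1%) from day 3 to day 4 morning, with a median of -0.18. On day 4 evening 1 was higher (against 7.83%). Away from the embryo 11 were higher (against 20.8%) with a median of 0.33. The median around against away was 0.064. Without Rn45s and Lars2, 2 were lower from day 3 to day 4 morning (against 14.1%) and 9 were higher away from the embryo (against 17.7%). The median around against away was then 0.091. Without a filter, 2 of 33 members were higher on day 4 evening (against 10.6% of all genes with a count). The scaling alternatives shift all genes of a library together. No paired analysis was possible because each group has 1 library, and leaving out a replicate was not possible for the same reason. The depth of 1 library per group gives counting error only, and the 6 genes under the filter had at most 31 counts in a library.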
